A study of Mus musculus with 6 samples.

Results

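The MYC, MAX and MXD network was followed in B16 cells, a mouse melanoma line, across normoxia and 2 regimes of hypoxia. Its 10 genes were taken by name: Myc and Mycn, their partner Max, the antagonists Mxi1, Mxd1, Mxd3, Mxd4, Mnt and Mga, and Mlx, a MAX-like partner. The rule itself used no measured value, but the genes were chosen with earlier results of these data known. The genes were matched to 21 of the 22690 probe sets (groups of array probes that report on 1 transcript). Of these, 15 probe sets of 8 genes had a mean signal of at least 8.33 units, the 40th percentile of all means, and were kept beside 13556 probe sets and 7746 genes in all. Mycn and Mxd1 had none above this limit.

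There was 1 Affymetrix array per group, and 6 groups. Normoxic cells were collected after 3 h (normoxia) or 1 h later (normoxia +1h). Chronic hypoxia lasted 3 h at an oxygen level under 1%. Cyclic hypoxia consisted of 3 periods of 1 h at that level, broken by reoxygenation for 30 min. Each hypoxic regime was collected at its end or after 1 h of reoxygenation. A change to alpha MEM with P/S and no serum, 2 h before hypoxia, is given in the protocol of every sample, normoxia included, so all groups lacked serum. The cyclic regime took longer in all, and the labels do not state that its controls did too, nor that any sample was a separate culture from the next. Arrays measured a whole culture, in which fewer expressing cells and less RNA per cell cannot be told apart.

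MYC is a transcription factor of cell growth and division that works only as a pair with MAX. Such pairs bind the E-box, a short DNA element, and switch on genes of ribosome assembly, nucleotide synthesis and the cell cycle. MXI1, the MXD proteins, MNT and MGA also pair with MAX at E-boxes, and most of them recruit the SIN3 corepressor and its histone deacetylases, so the balance of partners sets the output. MLX pairs with some MXD proteins, with MNT and with the glucose-sensing factors MondoA (Mlxip) and ChREBP (Mlxipl). In low oxygen, the hypoxia-inducible factor HIF is known to act on this network, Mxi1 being among its targets in other cells.

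The arrays carried the markers of melanocytes and a signal of hypoxia. All 6 melanocyte lineage markers named on the array were kept, with a summed signal of 17658 to 23299 units over the arrays. Mitf, the master regulator of the lineage, had a course of its own in that list: it had 2366 and 2568 units in the normoxia arrays, 2820 and 2225 in the chronic arrays, and 1256 at the end of cyclic hypoxia and 635 after reoxygenation (-0.91 and -2.02), where the other 5 markers differed by -0.25 to 0.41. No fibroblast or endothelial marker was kept (highest mean 5.55 and 4.23 units). Cd68 was the only immune marker kept (34.6 units), and Krt5 the only keratinocyte marker (10.0 units). Of 7 HIF check genes, 5 were 2-fold or more higher when chronic hypoxia ended and 5 when cyclic hypoxia ended, with medians of 2.61 and 1.38. The array after cyclic hypoxia with reoxygenation stood furthest from the rest, with a mean correlation of 0.940 across genes against 0.962 to 0.967 for the others. On it 10.6% of all genes were 2-fold or more lower than normoxia +1h, which applies to each value given for that array; the part of this in those values was not tested. All differences below are on the log2 scale, where 1 is 2-fold. They compare single arrays and have no error of their own. The closest measure of error was the pair of normoxia arrays: over 3620 genes with a mean signal of 50 to 300 units, their differences had an SD of 0.25, and over all 7746 genes 0.39.

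Mxi1, a repressor that competes with MYC for MAX, had the largest difference from normoxia among the 8 kept members at the end of chronic hypoxia. Its brightest probe set gave 81.6 units in normoxia, 394 in the chronic array and 113 in the cyclic array. In the later collection it was 85.6 units in normoxia +1h, 228 after chronic hypoxia with reoxygenation and 82.6 after cyclic hypoxia with reoxygenation. Both chronic arrays were thus above every other array, and the cyclic array at the end of hypoxia lay between. Against normoxia of the same collection, the chronic arrays differed by 2.27 (end) and 1.41 (reoxygenated), a 4.84-fold and a 2.66-fold higher signal. Cyclic hypoxia differed by 0.47 and -0.05, and the normoxia arrays by 0.07. A second, dimmer probe set of Mxi1 (18.7 units on average) gave 2.18 and 1.80 for chronic hypoxia, and 0.66 and 0.73 for cyclic hypoxia. The 2 probe sets thus had like values for the chronic regime, while after cyclic hypoxia with reoxygenation the dimmer one was above normoxia and the brighter one was not.

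**Figure D1:**
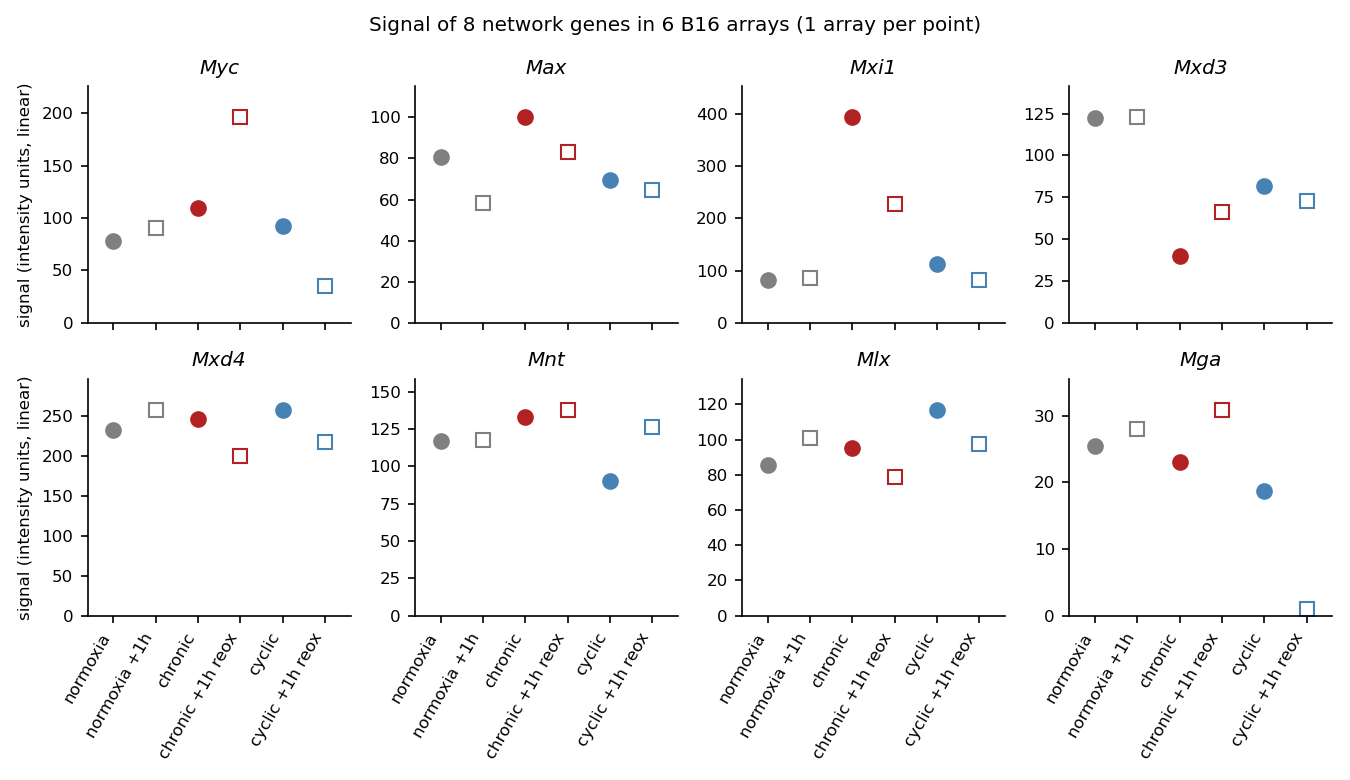
Signal (intensity units, linear axis from 0) of the brightest probe set of each of the 8 kept genes in the 6 arrays; each point is 1 array, filled circles mark the end of the exposure and open squares the collection 1 h later. Mxi1 peaked at 394 units after chronic hypoxia, Mxd3 was lowest there at 39.8 units, and Myc ranged from 35.0 to 197 units between the 2 reoxygenated arrays.

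The promoters of Mxi1 are shown because this gene differed most when chronic hypoxia ended. RefSeq promoter windows (build GRCm38.p6) were found for 9 of the 10 members, all but Myc, and Mxi1 has 3 entries. Below are the 250 bases before the first, most upstream start (chr19:53310256-53310505, plus strand) and before the second start (chr19:53329163-53329412, plus strand), 5′ to 3′. Capitals mark ACGTG or GCGTG on either strand, the core letters of a HIF site.
Mxi1 first start: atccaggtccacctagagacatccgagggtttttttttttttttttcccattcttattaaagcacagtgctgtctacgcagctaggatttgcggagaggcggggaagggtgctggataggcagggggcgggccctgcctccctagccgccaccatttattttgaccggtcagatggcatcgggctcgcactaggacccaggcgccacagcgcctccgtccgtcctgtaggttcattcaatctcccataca
Mxi1 second start: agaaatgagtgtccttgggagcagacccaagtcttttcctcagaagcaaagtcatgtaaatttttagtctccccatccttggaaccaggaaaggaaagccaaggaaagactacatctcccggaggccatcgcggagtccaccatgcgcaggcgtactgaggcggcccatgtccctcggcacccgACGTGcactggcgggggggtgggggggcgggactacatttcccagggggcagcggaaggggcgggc
The first window held neither motif, and the second held a single ACGTG, 66 bases before the start. The window of the third start, which is not printed (chr19:53329445-53329694, plus strand), also held a single ACGTG, 25 bases before that start. ACGTG was found in 16.6% and either motif in 38.6% of the 32851 promoter windows of this length, so a match is common. The match is a description of letters and does not show a bound site. Which start the probe sets report on was not tested.

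The limma fit over all 6 arrays, with regime and collection as terms, estimated the difference averaged over the 2 collections. For chronic hypoxia against normoxia Mxi1 had an estimate of 1.84 (SE 0.257, adjusted p = 0.0630 by limma with Benjamini-Hochberg adjustment), rank 20 by p among 13556 probe sets and just short of the 0.05 threshold, with both chronic arrays above their control. Its dimmer probe set had 1.99 (SE 0.396, adjusted p = 0.256). For cyclic hypoxia the estimate was 0.21 (SE 0.257, adjusted p = 0.747). Cyclic minus chronic hypoxia gave -1.64 (SE 0.257, adjusted p = 0.127, rank 19), the single arrays differing by -1.81 before and -1.46 following reoxygenation. The chronic call depended on scaling and on single arrays. The adjusted p was 0.0322 with quantile normalization, 0.00324 with median centring, 0.00628 without the array at the end of cyclic hypoxia, 0.00462 without the array after cyclic hypoxia with reoxygenation and 0.0230 without normoxia +1h. It ranged from 0.00324 to 0.694 over 11 alternatives, and 5 of them made the call, each with 0.111% to 0.516% of all probe sets called. For cyclic minus chronic hypoxia 4 alternatives made it: median centring (adjusted p = 0.0242), and leaving out normoxia (0.0196), normoxia +1h (0.0209) or the array at the end of cyclic hypoxia (0.00755). These called 0.73%, 0.531%, 0.465% and 9.83% of all probe sets. Without the array at the end of cyclic hypoxia mean hypoxia also passed for Mxi1 (1.00, adjusted p = 0.0408), as it did for 3.82% of all probe sets. Chronic and cyclic hypoxia share their normoxia arrays, so their values are given side by side and not as separate evidence.

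Myc itself had a different time course, with its extremes after reoxygenation. Its single probe set gave 78.5 units in normoxia, 109 after chronic and 92.0 after cyclic hypoxia. One hour later it gave 91.0 units in normoxia, 197 after chronic and 35.0 after cyclic hypoxia. Before reoxygenation the values lay close together, with differences from normoxia of 0.48 and 0.23. After the last hour the chronic array differed by 1.11 and the cyclic array by -1.38, in opposite directions, and the 2 reoxygenated arrays by -2.49 (cyclic minus chronic). Within a regime, the last hour brought 0.85 for chronic hypoxia, -1.40 for cyclic hypoxia and 0.21 for normoxia. The fit with regime and collection averages the 2 collections, so it tested none of these differences of a single collection or of the last hour. Its averaged estimates did not pass: cyclic minus chronic hypoxia had an estimate of -1.37 (SE 0.463, limma adjusted p = 0.274), chronic hypoxia 0.80 (SE 0.463, adjusted p = 1.00) and cyclic hypoxia -0.58 (SE 0.463, adjusted p = 0.596). Without the array at the end of cyclic hypoxia, cyclic minus chronic hypoxia became -2.33 (limma adjusted p = 0.00156) and cyclic hypoxia -1.54 (0.00950), values that rest on the array after cyclic hypoxia with reoxygenation alone; 9.83% and 9.35% of all probe sets were called in that setting. Without the reoxygenated cyclic array the same estimates were -0.41 and 0.39, the latter on the other side of 0, and without the reoxygenated chronic array the chronic estimate was 0.08. On the reoxygenated cyclic array 10.6% of all genes, and 11.3% of those with a mean of 50 to 300 units, were 2-fold or more lower than normoxia +1h, so the lower Myc signal was shared with many genes of like brightness. After chronic hypoxia with reoxygenation 2.98% of all genes were 2-fold or more higher.

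Mycn, the MYC relative of neural and embryonic tissue, had 3 probe sets with means of 1.29 to 5.18 units, all under the limit of the filter. Its values went from 0.470 to 10.1 units with no order shared by the probe sets, so no level is given. Max, the common partner of MYC and its antagonists, stayed within 2-fold in all arrays. It had 81.0 units in normoxia, 100.2 after chronic and 69.3 after cyclic hypoxia, then 58.4, 83.2 and 64.4 units an hour later. The chronic array was the highest of each collection, at 0.31 and 0.51 from normoxia, while the normoxia arrays themselves differed by -0.47. The fit gave 0.41 for chronic (SE 0.232, limma adjusted p = 1.00) and -0.04 for cyclic hypoxia (SE 0.232, adjusted p = 0.950).

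**Figure D2:**
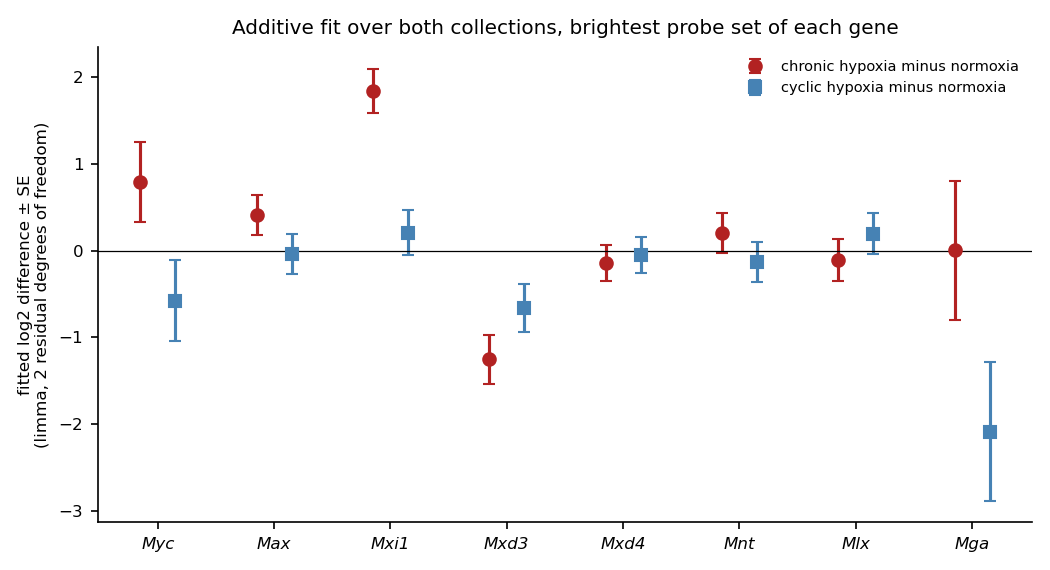
Estimates of the limma fit over both collections for the brightest probe set of each kept gene, as log2 differences from normoxia with the standard error; circles are chronic and squares cyclic hypoxia. Mxi1 stands at 1.84 for chronic and 0.21 for cyclic hypoxia, Mxd3 below 0 in both, and Mga has the widest bars; none passed an adjusted p of 0.05.

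Mxd3, an MXD repressor found in dividing cells, lay on the other side of normoxia from Mxi1 in chronic hypoxia. Its brightest probe set gave 122 units in normoxia, 39.8 after chronic and 81.8 after cyclic hypoxia, then 123 units in normoxia +1h, 66.4 after chronic and 73.1 after cyclic hypoxia with reoxygenation. All 4 hypoxic arrays were below both normoxia arrays, which differed by 0.01. The differences were -1.62 and -0.58 at the end and -0.89 and -0.75 after the last hour. The fit gave -1.25 for chronic hypoxia (SE 0.278, limma adjusted p = 0.338, rank 79) and -0.96 for mean hypoxia (SE 0.241, adjusted p = 0.369), so neither passed. Over 11 alternatives the limma adjusted p for chronic hypoxia ran from 0.0472, without the array after cyclic hypoxia with reoxygenation, to 1.00. That for mean hypoxia passed at 0.0301 without the array at the end of cyclic hypoxia. These settings called 0.516% and 3.82% of all probe sets. The 2 dimmer probe sets of Mxd3, with means of 60.7 and 31.8 units, gave -0.58 and -0.22 after chronic hypoxia and -0.63 and -0.60 after cyclic hypoxia. After the last hour they gave -0.17 and -1.04 for chronic, and -0.06 and -0.05 for cyclic hypoxia. The sign was therefore negative at the 3 probe sets in all 4 contrasts. Several values of the dimmer ones were nevertheless near 0. At the probe set of 60.7 units, -0.17 and -0.06 were within 0.25 of 0, the SD between the normoxia arrays for genes of 50 to 300 units. At that of 31.8 units, -0.22 and -0.05 were smaller in size than the 0.36 between its own normoxia arrays. The size was not shared: with the mean over probe sets, the difference after chronic hypoxia was -0.81 in place of -1.62.

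Mxd4, the MXD protein of resting and differentiated cells, had between 199 and 258 units on its brightest probe set in all arrays. The differences were 0.08 after chronic and 0.15 after cyclic hypoxia, and -0.37 and -0.24 after the last hour. A second probe set (67.9 units) gave 83.6 units in normoxia, 50.7 after chronic and 84.7 after cyclic hypoxia, then 79.2, 48.0 and 61.2 units. There the 2 chronic arrays were the lowest, with -0.72 at both collections (fit -0.72, SE 0.240, limma adjusted p = 0.749). The 2 brighter probe sets of Mxd4 thus differed in sign at the end of chronic hypoxia (0.08 against -0.72). With reoxygenation both were below normoxia +1h (-0.37 and -0.72). The chronic estimate of the fit was negative at both but differed in size (-0.14 and -0.72). The remaining probe sets, at 19.8 and 8.66 units, varied by 1.16 and 1.29 between arrays with no shared order. Mxd1, the founding MXD member, was below 2.10 units, the 20th percentile of all values, on all 6 arrays and has no level here.

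**Figure D3:**
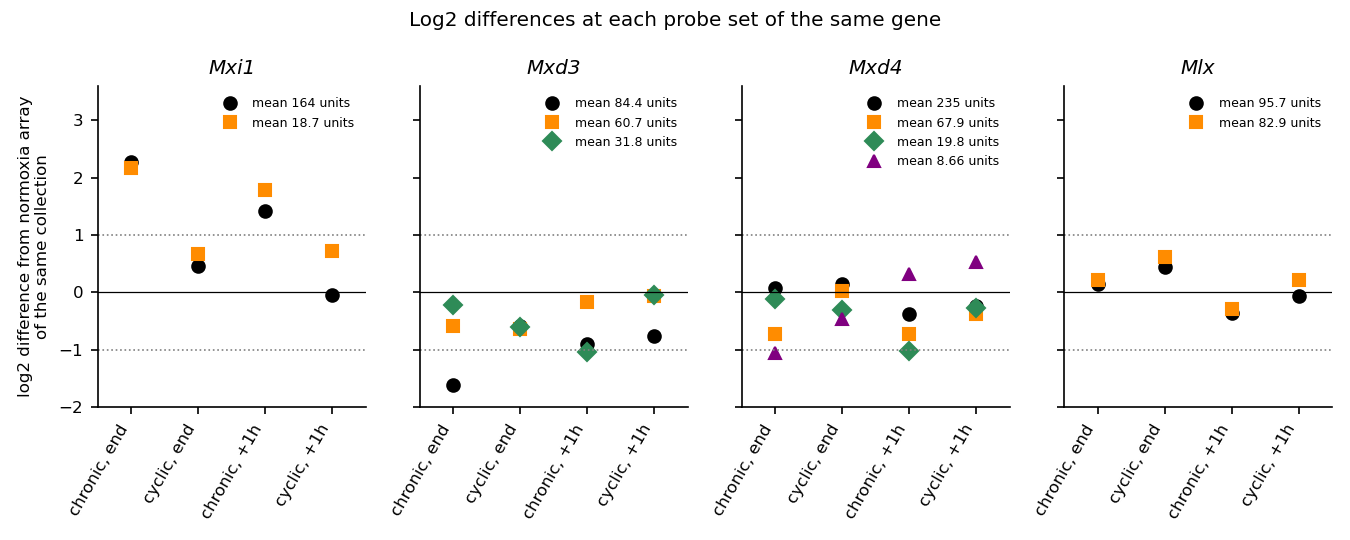
Log2 difference of each hypoxic array from the normoxia array of the same collection, for every kept probe set of Mxi1, Mxd3, Mxd4 and Mlx; each symbol is 1 probe set, named by its mean signal, and dotted lines mark 2-fold. The 2 probe sets of Mxi1 lie together after chronic hypoxia (2.27 and 2.18), whereas those of Mxd3 spread from -1.62 to -0.22.

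Mnt, the broadly expressed antagonist of MYC, gave 117 units in normoxia, 133 after chronic and 90.5 after cyclic hypoxia, and 118, 138 and 126 units in the later collection. The array at the end of cyclic hypoxia was the lowest, at -0.37 from its control, and the other differences were 0.10 to 0.23. Mlx gave 85.7, 95.0 and 117 units in the first collection and 100.9, 78.7 and 97.2 units in the second. Both hypoxic arrays were above normoxia at the end (0.15 and 0.45) and below it after the last hour (-0.36 and -0.05). The second Mlx probe set gave 0.22 and 0.62 at the end, and -0.28 and 0.22 later. For neither gene did the fit pass for chronic or cyclic hypoxia (limma adjusted p of 0.740 to 1.00 at the brightest probe set).

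Mga, a very large protein that pairs with MAX and belongs to a Polycomb complex, had 25.4 units in normoxia, 23.1 after chronic and 18.7 after cyclic hypoxia. One hour later it had 28.0 units in normoxia +1h and 30.9 in the chronic array, and the cyclic array, at 1.04 units, lay below the floor of 2.10 units (the 20th percentile of all values, to which lower signals were set). The other 5 arrays were within 18.7 to 30.9 units, so a single array set this gene apart. Set against the floor, its difference from normoxia +1h was -3.74 or lower, and with a floor at the 40th percentile -1.67 or lower. The floor value entered the fit for that array, giving -2.09 for cyclic hypoxia (SE 0.798, limma adjusted p = 0.284). Without the array at the end of cyclic hypoxia this became -3.81 (limma adjusted p = 0.00188), cyclic minus chronic hypoxia -3.81 (0.00172) and mean hypoxia -1.90 (0.0248), which rest on the array below the floor; this setting called 9.35%, 9.83% and 3.82% of all probe sets. The second Mga probe set (7.35 units, under the filter limit) gave 0.57 in the same contrast, the opposite direction.

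A second fit pooled both regimes and let the hypoxia difference change over the last hour. It called 0 of 13556 probe sets for hypoxia at the end, for hypoxia after the last hour or for the change between them, with 490, 265 and 308 at an unadjusted p under 0.05. At the end the estimates were 1.37 for Mxi1 (SE 0.835), -1.10 for Mxd3 (SE 0.473) and 0.35 for Myc (SE 0.896), each at a limma adjusted p of 1.00. The change was -0.69 for Mxi1, -0.49 for Myc and -0.50 for Mlx, also at 1.00. Single arrays decided these calls. Without the array after chronic hypoxia with reoxygenation, Mxi1 (limma adjusted p = 0.000931) and Mxd3 (0.0360) passed at the end, and the change passed for Myc (-1.73, 0.0199), Mxi1 (-1.42, 0.0438) and Mga (-3.45, 0.00841). The difference after the last hour then passed for Myc (-1.38, 0.00492) and Mga (-3.74, 5.16e-06), which rests on the reoxygenated cyclic array alone. The calls over all probe sets then came to 2.06% before reoxygenation, 9.27% with it and 3.96% for the change. Without the array after cyclic hypoxia with reoxygenation, Mxi1 (0.00157) and Mxd3 (0.0481) passed at the end and Mxi1 after the last hour (1.41, 0.0127), while the change for Myc was 0.76 (0.891). The calls over all probe sets then came to 2.04% before and 0.561% with reoxygenation.

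Counted over the 8 kept members, few crossed 2-fold in any contrast, and counts this small cannot settle whether the network shared a direction. At the end 6 of the 8 were above 0 for chronic and 4 for cyclic hypoxia. After the last hour these counts were 5 and 2. The same counts over all genes were not made. At the end of chronic hypoxia 1 member, Mxi1, was 2-fold or more higher and 1, Mxd3, lower. Among all 7746 genes these shares were 2.53% and 2.36%. At the end of cyclic hypoxia the counts were 0 and 0 (2.12% and 5.44% of all genes). After the last hour 2 were higher after chronic hypoxia, Myc and Mxi1, and 0 lower (2.98% and 1.12%), while after cyclic hypoxia 0 were higher and 2, Myc and Mga, lower (3.56% and 10.6%). The split of all genes depended on scaling: with median centring it was 3.05% and 4.04% at the end of cyclic hypoxia, 2.26% and 1.64% after chronic and 5.09% and 8.56% after cyclic hypoxia with reoxygenation. Before reoxygenation the members had a median of 0.17 for chronic and -0.04 for cyclic hypoxia, and with it 0.19 and -0.15, and the medians of all genes were within 0.03 of 0. Between the regimes, cyclic hypoxia at the end had Mxd3 higher and Mxi1 lower than chronic hypoxia (1.23% and 3.76% of all genes). After reoxygenation Myc, Mxi1 and Mga were lower (12.6%) and 0 higher (2.5%; with median centring 8.26% and 6.15%). Over the final hour of the cyclic regime Myc and Mga were lower and 0 higher (7.47% and 2.9% of all genes; with median centring 5.6% and 4.11%). No member crossed 2-fold over that hour in the chronic regime (2.22% of all genes higher, 1.45% lower) or between the normoxia arrays (0.865% and 1.87%). The fit called 0 member probe sets for chronic hypoxia, where it called 13 of 13556 in all, each higher (0.0959%), and 725 had an unadjusted p under 0.05. For mean hypoxia it called 0 member probe sets of 2 in all (0.0148%), with 1207 at an unadjusted p under 0.05. For cyclic hypoxia it called 0 in all, with 2024 at an unadjusted p under 0.05, and 0 for cyclic minus chronic hypoxia, with 1960. Among the member probe sets 4 had an unadjusted p under 0.05 for chronic hypoxia, both of Mxi1, 1 of Mxd3 and 1 of Mxd4. For cyclic hypoxia there were 2, of Mga and Mxd3, and for cyclic minus chronic hypoxia 4, both of Mxi1 and those of Myc and Mga.

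The genes whose signal over the 6 arrays followed Mxi1 and Myc most closely were sought among 556 others with a mean of at least 100 units and a span of at least 1 log2 unit. The correlations describe 6 arrays in 3 regimes and carry no test. For Mxi1 they were Ero1a (r = 0.953), an oxidase of protein folding, the small nucleolar RNA host gene Snhg1 (r = 0.942) and Ccng2 (r = 0.936), an unusual cyclin of arrested cells. Ero1a had 210 units in normoxia, 1367 after chronic and 509 after cyclic hypoxia. Ccng2 had 116, 343 and 184 units in the same arrays. For Myc they were Peli1 (r = 0.981), a ubiquitin ligase of immune signalling, Tiparp (r = 0.977), an ADP-ribosyltransferase, and the splicing factor Rbm39 (r = 0.975). Like Myc, Tiparp was highest after chronic hypoxia with reoxygenation (265 units) and lowest after cyclic hypoxia with reoxygenation (72.8 units), and Rbm39 had 161 and 38.2 units there.

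Of the genes that MYC switches on, none crossed 2-fold before reoxygenation, and few genes in general did. Of 39 listed genes of ribosome assembly, nucleotide synthesis and growth, 36 were kept, and 0 of them were 2-fold or more higher or lower at the end of either regime or after chronic hypoxia with reoxygenation. Among all genes 2.53% were higher and 2.36% lower at the end of chronic hypoxia, and 2.12% and 5.44% at the end of cyclic hypoxia. For genes with a mean of 50 to 300 units the shares were 1.74% and 0.773%, then 1.49% and 2.82%. A count of 0 of 36 is thus near the background, and it says nothing of smaller differences. In the chronic array 29 of 36 were above 0 (median 0.19), and in the cyclic array 14 of 36 (median -0.09). Genes in general with a mean of at least 100 units had medians of 0.03 and 0.04 in these contrasts. The share of all genes above 0 was not counted. After the last hour the medians were 0.06 and 0.00, and 2 genes were 2-fold or more lower on the cyclic array, which stood apart (10.6% of all genes lower): Ppat (-1.53), an enzyme of purine synthesis, and Polr1b (-1.44), a subunit of RNA polymerase I. Nucleolin (Ncl) differed by 0.19 and -0.30 at the end and by 0.05 and -0.68 after the last hour. Nucleophosmin (Npm1), also of the nucleolus, differed by 0.03 and -0.35, then 0.25 and -0.83. Ornithine decarboxylase (Odc1), the entry to polyamine synthesis, differed by 0.03 and 0.14, then -0.22 and 0.21. The highest bright genes of the list at the end of hypoxia were Shmt2, a mitochondrial enzyme of one-carbon metabolism (0.30 and 0.79), and Pes1, of ribosome assembly (0.59 and 0.45). The lowest were the cell cycle phosphatase Cdc25a (-0.87 and -0.71) and Gart (-0.18 and -0.64), of purine synthesis. The fit called 0 of the 36 for chronic, cyclic or mean hypoxia.

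Of 9 listed genes that MYC holds down, 4 were kept. Ndrg1, also a HIF target, differed by 0.94 and 0.99 at the end and 0.68 and 1.40 after the last hour, and was above its control in all 4 hypoxic arrays. The cell cycle inhibitors Cdkn1a (0.30 and 0.04) and Cdkn1b (-0.11 and -0.44) lay nearer 0 at the end. No member of this list was called by the fit.

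**Figure D4:**
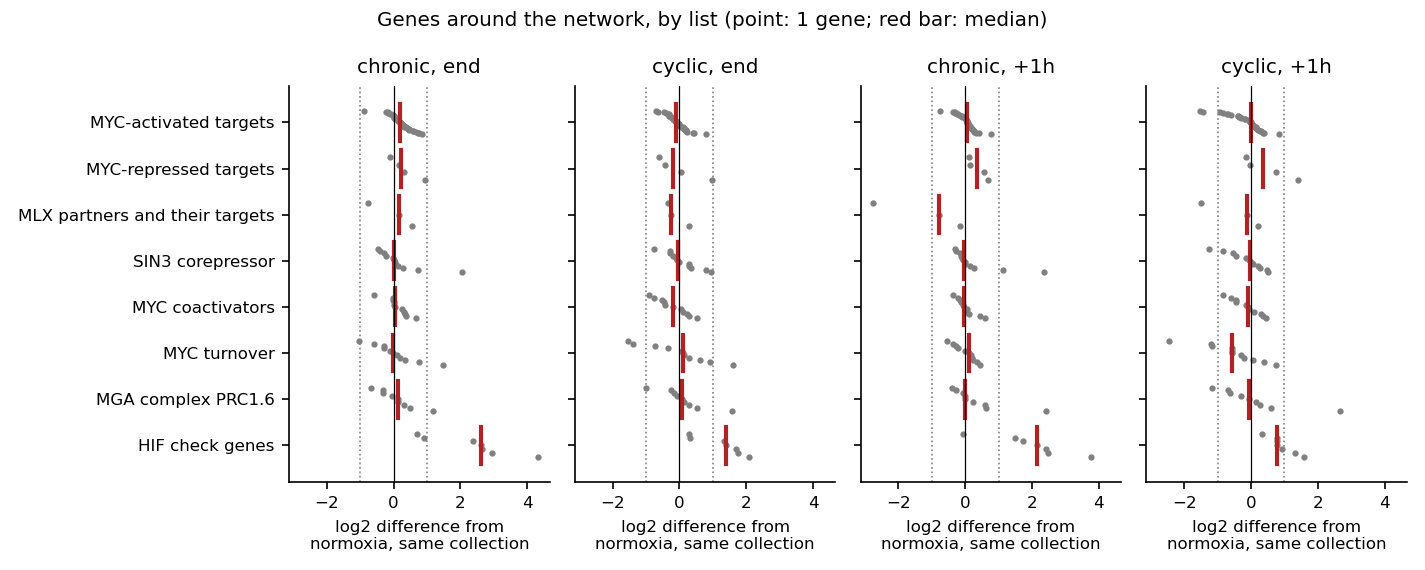
Log2 difference from the normoxia array of the same collection for the genes of each list around the network, in the 4 hypoxic arrays; each point is 1 gene, red bars are medians and dotted lines mark 2-fold. The 36 MYC-activated genes have medians of 0.19, -0.09, 0.06 and 0.00, and the HIF check genes have medians of 2.61, 1.38, 2.16 and 0.78.

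Of 3 kept genes on the MLX side, Txnip had its lowest values after reoxygenation. Txnip, an inhibitor of glucose uptake and a target of MondoA and MLX, had 142 units in normoxia, 158 after chronic and 113 after cyclic hypoxia. An hour later it had 186 units in normoxia, 27.2 after chronic and 66.1 after cyclic hypoxia. Both reoxygenated arrays were thus below the other 4, by -2.77 and -1.49 from normoxia +1h. The fit over both collections did not pass for chronic hypoxia (-1.31, SE 0.565, limma adjusted p = 0.935). Arrdc4, a relative of Txnip and another MondoA target, did not share this course. It had 19.5 units on average and differed by -0.78 and -0.77 for chronic, and by -0.24 and -0.11 for cyclic hypoxia. Mlxip had differences of 0.56 and 0.28 at the end and -0.14 and 0.21 later.

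Among 12 kept genes of the SIN3 corepressor, which MXI1 and the MXD proteins recruit, Sap30 stood alone. This subunit had 89.8 units in normoxia, 375 after chronic and 155 after cyclic hypoxia, then 88.7, 454 and 106 units. Both chronic arrays were above all others, as for Mxi1. Sap30 had an estimate of 2.21 for chronic hypoxia (SE 0.249, limma adjusted p = 0.0308), with the chronic array of each collection above its control. It was the only gene outside the HIF check genes called in these lists, where the fit called 0.0959% of all probe sets for chronic hypoxia. The call was lost without the array at the end of chronic hypoxia (adjusted p = 0.0594) or that with reoxygenation (0.151), without the filter (0.614) and without the intensity trend (0.423). The scaffold Sin3a differed by 0.13 and -0.20 at the end and -0.02 and -0.84 later, and the deacetylases Hdac1 by -0.47 and -0.29, and Hdac2 by -0.42 and -0.75, at the end. The medians of the 12 were 0.03 and -0.05 at the end and -0.05 and -0.02 after the last hour. Only Sap30 crossed 2-fold at the end of chronic hypoxia (2.53% of all genes higher, 2.36% lower). None did at the end of cyclic hypoxia (2.12% and 5.44% of all genes). After the last hour Arid4b, at 15.9 units on average, also did so in the chronic array (1.14), and Hdac2 in the cyclic array (-1.24), on which 10.6% of all genes were lower.

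Of 11 kept MYC coactivators 0 crossed 2-fold in any hypoxic array, which is near the background. Among all genes 2.53% were higher and 2.36% lower at the end of chronic hypoxia, and 2.12% and 5.44% at the end of cyclic hypoxia. With reoxygenation the shares were 2.98% and 1.12% for chronic, and 3.56% and 10.6% for cyclic hypoxia. Trrap, the scaffold of the acetyltransferase complexes, differed by 0.36 and 0.54 at the end, Ruvbl2 by 0.67 and -0.18, Ruvbl1 by -0.02 and -0.51 and Actl6a by -0.59 and -0.47. Among 11 genes of MYC turnover, those past 2-fold at the end of hypoxia were dim. Cip2a, an inhibitor that shields MYC from dephosphorylation (20.3 units on average), differed by -1.04 and -1.39, Pim1, a kinase that acts with MYC (32.8 units), by -0.59 and -1.55, and the ubiquitin ligase subunit Fbxo32 (9.47 units) by 1.47 and 1.61. Aurka, a kinase that stabilises MYCN, differed by 0.21 and 0.63. Of the kinase pair that marks MYC for destruction, Gsk3a differed by -0.29 and -0.74. Its partner Gsk3b (99.7 units) went the other way, by 0.75 and 0.90. Of 9 genes of the MGA Polycomb complex, Cbx1 differed by -0.67 and -1.01 at the end and Rnf2, the ubiquitin ligase of the complex, by 0.50 and 0.28 and then by 0.61 and -1.16, the last on the array that stood apart. Ring1 differed by 1.19 and 1.57 at the end, but its normoxia arrays had 14.7 and 31.2 units. The fit called none of these lists' genes.

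The E-box CACGTG, the element the network binds, is shown for the members that carry it before their own start. It was found in the 250 bases before the start of Mlx, Mnt and Mxd4, 3 of the 11 member windows, and in 6.02% of all 32851 windows. Each is printed 5′ to 3′ with the E-box in capitals: Mlx at chr11:101087233-101087272 (plus strand, 40 bases before the start), Mnt at chr11:74830784-74830823 (plus strand, 123 bases before) and Mxd4 at chr5:34187907-34187946 (minus strand, 219 bases before).
Mlx: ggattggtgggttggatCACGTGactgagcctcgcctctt
Mnt: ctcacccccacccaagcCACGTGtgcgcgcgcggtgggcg
Mxd4: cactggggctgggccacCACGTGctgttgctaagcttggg
Every CACGTG also contains ACGTG, so these windows count among the 7 of 11 member windows with ACGTG or GCGTG (38.6% of all windows). The brightest probe sets of these genes stayed within 2-fold in all arrays. Max, Mxd3 and Mycn had neither ACGTG nor GCGTG in the window. Myc had no window and was not searched for any of these motifs.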

How the data were processed

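Gene expression was measured on 6 Affymetrix arrays, 1 per group, from 5 µg of total RNA each. The authors deposited signal intensities on a linear scale, processed with GCOS per the submitters' processing notes; its version and algorithm are not given in the sources used here. The trimmed mean of each array (2% left out at each end) was 100.1, so the authors' scaling was kept. From these values, the 20th percentile of all signals (2.10 units) was used as a floor, and log2 was then taken. Probe sets with a mean under the 40th percentile (8.33 units) and 64 control probe sets were left out. Of the probe sets, 20393 named 1 gene, 691 several and 1606 none; 20364 were given current symbols by Entrez identifier. The brightest probe set stood for a gene.

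Tests used limma 3.58.1 in R 4.3.3, two-sided, moderated with an intensity trend, and adjusted by Benjamini-Hochberg over 13556 probe sets at 0.05. The additive fit held regime and collection, and the interaction fit hypoxia, collection and their product. Both left 2 residual degrees of freedom. Both were run on simulated data with independent noise and the same change in every hypoxic array. Those data held no difference between regimes and no array that stood apart, so they do not show how the fits behave on the real arrays. No group had a replicate. In the additive fit the 2 collections stood in for replicates of a regime, and in the interaction fit chronic and cyclic hypoxia stood in for replicates of hypoxia. The p-values measure only the spread that each fit left between these arrays, and not the spread between repeated cultures. The alternatives were other scalings, floor, filter, probe set summary, fold, control and moderation, and leaving out each array (for the interaction fit, each hypoxic array only). Members and lists were chosen with earlier results of these data known. Named genes were all members, the 2 highest and 2 lowest genes of each list at the end of hypoxia with a mean of at least 100 units, called genes, 7 fixed genes (Txnip, Arrdc4, Sin3a, Sap30, Odc1, Ncl, Npm1) and the 3 genes most like a bright member; the dim genes named for crossing 2-fold, and others given as examples, were chosen after their values were seen. Promoter sequences are from RefSeq (GRCm38.p6).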

Additional observations from a re-analysis of the deposited data

How the results depend on the processing

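Of 392 member differences recomputed under other settings, 382 moved by less than 0.39, the SD between the normoxia arrays, and 10 by more, 7 of them with the mean over probe sets and 3, all of Mga, with the higher floor; no difference past 2-fold changed sign. With median centring, 1 member in place of 2 was higher and 1 in place of 0 lower after chronic hypoxia with reoxygenation (2.26% and 1.64% of all genes), and 5 list genes in place of 2 were higher after cyclic hypoxia (3.05%); the fit then called 1 member probe set, of Mxi1, for chronic hypoxia and 1 for cyclic minus chronic hypoxia, among 0.31% and 0.73% of all 13556. Quantile normalization called 1 for chronic hypoxia, also of Mxi1 (0.155% of all). The higher floor left 1 list gene higher after cyclic hypoxia (1.7% of all genes), and 1 after cyclic hypoxia with reoxygenation (2.5%). Without the filter, which brings in Mycn and Mxd1, 1 member was higher after cyclic hypoxia, 2 for cyclic minus chronic hypoxia at the end and 1 over the last hour of chronic hypoxia, beside 4.95%, 5.15% and 7.35% of all genes. List genes then numbered 3 lower after chronic hypoxia, 6 lower after cyclic hypoxia, 2 lower after chronic hypoxia with reoxygenation and 4 higher after cyclic hypoxia with reoxygenation (7.54%, 10.1%, 4.91% and 10.9% of all genes). With the mean over probe sets, 0 members were lower after chronic hypoxia and 0 higher for cyclic minus chronic hypoxia at the end (2.19% and 1.28% of all genes). At 1.5-fold, 1 member was lower after chronic hypoxia with reoxygenation, and 2 were higher and 1 lower over the last hour of chronic hypoxia (5.05%, 6.96% and 5% of all genes). Leaving out each array in turn, the additive fit called 0 to 2 member probe sets for chronic hypoxia, 0 to 2 for cyclic hypoxia, 0 to 3 for their difference and 0 to 3 for mean hypoxia, while up to 0.516%, 9.35%, 9.83% and 3.82% of all probe sets were called. The interaction fit called 0 to 2 at the end, 0 to 2 after the last hour and 0 to 3 for the change, with up to 2.06%, 9.27% and 3.96% of all. These fits have 1 residual degree of freedom, and the lone array of a group is assumed to vary like the others. The interaction fit was repeated only without each hypoxic array in turn, and not without either normoxia array. The cause of these shifts was not tested. Dim probe sets, under about 50 units, limit what can be said of Mycn, Mxd1 and Mga.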
